A study of Mus musculus with 18 samples.

Results

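The 10 genes described here are a muscle atrophy set: the ubiquitin ligase genes Fbxo32, Trim63 and Fbxo30, the forkhead factor genes Foxo1, Foxo3 and Foxo4, the regulators Klf15 and Gadd45a, and the autophagy genes Map1lc3b and Sqstm1. They were chosen by name from what is known of muscle atrophy, with earlier results of these data known. They make 10 of the 35275 genes in the deposited expression table. All 10 were matched to 1 Ensembl identifier each, and all 10 were among the 13869 genes tested. Klf15 passed the filter on low values only through the 3 MUNC spliced DM3 libraries, so its values there are given as a description. Its calls, its read ratios and the lack of overlap of its groups support nothing. The counts below include its calls and its lack of overlap. RNA-seq of polyadenylated RNA was available for 18 libraries of C2C12, a mouse myoblast line whose stock the labels call PAX7 NEG. Wild-type C2C12 (control), C2C12 overexpressing the spliced form of MUNC (MUNC spliced) and C2C12 overexpressing its genomic, unspliced form (MUNC genomic) were each sampled in 2 media. MUNC, a long noncoding RNA, comes from the region upstream of the Myod1 gene. Growth medium (GM) held 20% fetal bovine serum and cells were taken at about 80% confluency, whereas DM3 cells had spent 3 days in medium with 2% horse serum. Each of the 6 groups had 3 biological replicates. The labels do not say whether each overexpressing line is a pool or a clone, and no animal was used.

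In wasting muscle, protein is removed by the ubiquitin-proteasome system and by autophagy. Fbxo32 (atrogin-1) and Trim63 (MuRF1) encode muscle ubiquitin ligases that are the usual markers of atrophy, and the FoxO transcription factors are their best known activators. When insulin or IGF signalling is active, AKT phosphorylates FoxO proteins and holds them in the cytoplasm, so that transcript levels of the Foxo genes do not by themselves report FoxO activity. Klf15 is a glucocorticoid-induced factor, Gadd45a is induced in denervated muscle, Map1lc3b encodes the LC3B protein of autophagosomes, and Sqstm1 encodes p62, a receptor that carries ubiquitinated cargo to LC3.

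Promoter sequence was shown for Trim63 and Klf15 because they were the 2 members whose MUNC spliced DM3 libraries all lay above all control DM3 libraries. The sequences are the 250 bases before the start of each gene, from RefSeq on GRCm38.p6, plus strand for both. Capitals mark a forkhead motif (GTAAACA, or TGTTTAC on the other strand) and E-boxes (CANNTG), the class of site that MyoD and myogenin bind. No overlap between the 2 motifs is possible in these windows as marked.
Trim63 (chr4:134314870-134315119): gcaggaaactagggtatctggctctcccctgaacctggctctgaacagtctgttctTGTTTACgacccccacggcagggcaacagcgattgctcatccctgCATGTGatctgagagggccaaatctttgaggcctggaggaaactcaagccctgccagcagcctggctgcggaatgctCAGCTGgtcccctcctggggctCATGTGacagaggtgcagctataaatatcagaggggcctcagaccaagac
Klf15 (chr6:90462326-90462575): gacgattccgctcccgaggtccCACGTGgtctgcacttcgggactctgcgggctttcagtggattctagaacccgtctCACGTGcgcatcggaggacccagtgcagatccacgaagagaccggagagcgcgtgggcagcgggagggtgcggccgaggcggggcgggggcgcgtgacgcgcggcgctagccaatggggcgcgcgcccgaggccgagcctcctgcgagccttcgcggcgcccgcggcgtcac

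The forkhead motif stood 194 bases before the Trim63 start, and Trim63 was the 1 member of the 8 with a RefSeq promoter that held it. Of 32851 windows of the same length, 3.17% held this motif on either strand. Trim63 had E-boxes 149, 72 and 50 bases before its start, and Klf15 had the letters CACGTG 228 and 172 bases before its start. An E-box of any kind was present in 5 of the 8 members (Trim63, Foxo1, Klf15, Gadd45a and Map1lc3b) and in 66.2% of all windows, whereas CACGTG was present in 6.02% of all windows. These are matches of letters in 1 window and no binding was measured. Promoters of Fbxo32 and Foxo4 were not analysed here.

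On GRCm38 the ligase genes lie on chromosome 15 (Fbxo32, ENSMUSG00000022358, 58175879 to 58214932, minus strand), chromosome 4 (Trim63, ENSMUSG00000028834, 134315120 to 134329629, plus) and chromosome 10 (Fbxo30, ENSMUSG00000047648, 11281330 to 11298052, plus). Foxo1 (ENSMUSG00000044167) lies on chromosome 3 at 52268336 to 52353221 (plus), Foxo3 (ENSMUSG00000048756) on chromosome 10 at 42181841 to 42276755 (minus) and Foxo4 (ENSMUSG00000042903) on chromosome X at 101254528 to 101260873 (plus). Klf15 (ENSMUSG00000030087) lies at 90462576 to 90475238 (plus) and Gadd45a (ENSMUSG00000036390) at 67035096 to 67037457 (minus), both on chromosome 6. Map1lc3b (ENSMUSG00000031812) lies on chromosome 8 at 121590361 to 121598760 (plus) and Sqstm1 (ENSMUSG00000015837) on chromosome 11 at 50199366 to 50210827 (minus). Each level below is that of the whole gene.

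The libraries held 38416702 to 68788327 recovered reads each. Values are given in FPM, fragments scaled for library size and not divided by gene length. The label myotubes was checked against 17 myogenic and myotube markers, of which 15 were found. In control DM3 some markers were near 0: Myog averaged 0.344 FPM, Myh3 0.444 FPM and Myod1 0.0993 FPM, and Myh8 had no read. Others were not, as Des, Myf5 and Cdh15 had 16.0, 20.0 and 18.1 FPM in their lowest library of all 18. The summed level of the list was 221 to 305 FPM in control DM3, 505 to 1446 FPM in MUNC spliced DM3 and 1040 to 1214 FPM in MUNC genomic DM3. In GM the sum was 158 to 176 FPM in control, 257 to 359 FPM in MUNC spliced and 399 to 694 FPM in MUNC genomic cells. Both MUNC lines were thus above control in GM already. The proliferation genes Mki67, Top2a, Ccnb1, Cdk1 and Ccna2 were all lower in DM3 than in GM in each of the 3 lines, and their sum in control cells went from 2239 to 2811 FPM in GM to 198 to 370 FPM in DM3. Of the other cell types checked, adipocyte markers (6 genes, with Adipoq at most 0.0505 FPM and no Lep read in any library) summed to 22.3 to 23.0 FPM in MUNC spliced DM3 against 8.03 to 10.5 FPM in control DM3, and fibroblast markers (6 genes, with no Tcf21 read in any library) to 3879 to 4374 FPM against 1943 to 2449 FPM. The same lists summed to 20.2 to 26.1 FPM in MUNC spliced GM against 7.01 to 11.2 FPM in control GM, and to 2875 to 5910 FPM against 1910.2 to 2898 FPM. In MUNC genomic cells osteoblast markers (5 genes) summed to 47.3 to 56.5 FPM in DM3 against 73.4 to 107 FPM in control, and endothelial and blood markers (5 genes) to 9.46 to 10.8 FPM in GM against 2.73 to 5.58 FPM. Their fibroblast markers summed to 1437 to 1750.1 FPM in DM3, below control, while the endothelial and blood sum in MUNC spliced cells was below control in GM (1.59 to 2.24 FPM) and in DM3 (0.871 to 1.52 FPM against 2.75 to 5.29 FPM). Few genes made up some of these sums. Among fibroblast markers Col1a1 reached 5819 FPM and Dcn 550 FPM, but Pdgfra at most 27.04 FPM and Lum 10.1 FPM. Without MUNC spliced DM3 replicate 1, 1 of 4 tested fibroblast markers was called higher in MUNC spliced than in control DM3. Among osteoblast markers Runx2 was at 47.2 to 107 FPM and every other gene at most 0.505 FPM. The part of the shifts of these sums in the results on either line was not tested.

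MUNC spliced DM3 replicate 1 stood apart from its group. Its Myog level was 226 FPM against 52.6 and 41.0 FPM in replicates 2 and 3, its Myh3 level 177 against 24.2 and 37.9 FPM, and its Mki67 level 192 against 42.3 and 49.3 FPM. It was the lowest of its group for 6 of the 10 members (Fbxo32, Foxo3, Foxo4, Gadd45a, Map1lc3b and Sqstm1), as MUNC genomic DM3 replicate 3 also was for 6. Member calls and counts that changed without it are given beside the results.

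Levels of most members were higher in DM3 than in GM in every line. Differentiation below names only the change from GM to DM3, since Myog, Myh3 and Myod1 were near 0 in control DM3. In control cells 7 of 10 members were called higher in DM3 than in GM and none lower. Calls here are those of limma with a Benjamini-Hochberg adjusted p below 0.05, and 58.2% of all tested genes were called in this comparison (29.6% higher, 28.6% lower). In MUNC spliced cells 8 of 10 were called, Klf15 among them, all higher (35.6% of all genes, 17.2% higher and 18.4% lower). In MUNC genomic cells 7 were called, 6 of them higher (51.4% of all genes, 26.3% higher and 25.1% lower). The DM3 values lay wholly apart from the GM values for 8, 7 and 8 members in the 3 lines, against 62.4%, 44.6% and 62.8% of all genes. The median log2 change of the members was 1.20 in control, 0.68 in MUNC spliced and 1.02 in MUNC genomic cells, beside 0.02, -0.01 and 0.02 over all tested genes. Fbxo32, Trim63, Foxo3, Foxo4, Gadd45a and Map1lc3b were called higher in all 3 lines, 6 of 10 members, against 9.42% of all tested genes. No member was called lower in all 3, against 12.9% of all genes. In bulk RNA, fewer cells of a kind and less RNA per cell cannot be told apart.

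**Figure D1:**
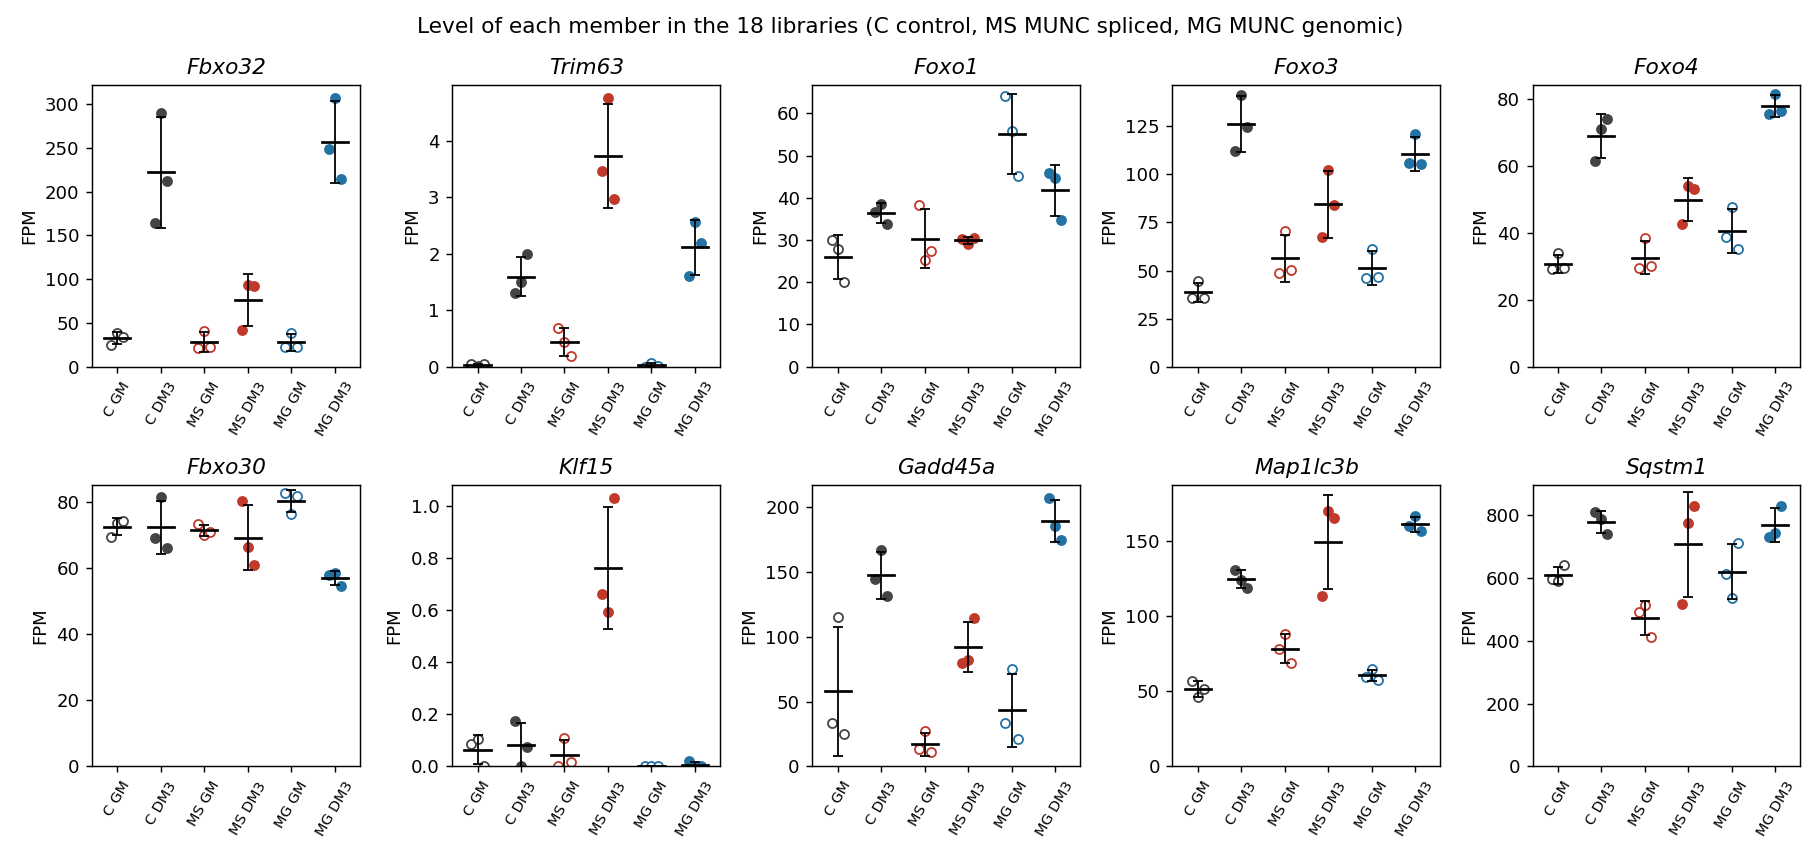
Level of each of the 10 genes (y axis, FPM, starting at 0) in the 6 groups (x axis), 1 point per library, open in GM and filled in DM3, with the mean as a bar and the SD as the error bar (n = 3). Fbxo32 reached 164 to 307 FPM in control and MUNC genomic DM3 but 42.1 to 93.9 FPM in MUNC spliced DM3, whereas Trim63 was highest in MUNC spliced DM3.

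Differences between lines were called for fewer members. Against control in GM, MUNC spliced cells had 3 members higher and 1 lower (35.5% of all genes called, 18.2% higher and 17.3% lower), and MUNC genomic cells had 2 higher (26.8% called, 12.2% higher and 14.5% lower). In DM3, MUNC spliced cells had 2 higher, of which 1 was Klf15, and 3 lower (43.3% called, 22.3% higher and 21% lower). Without MUNC spliced DM3 replicate 1 this became 3 higher and 1 lower, with 5331 of all 13869 genes called. MUNC genomic cells had 1 higher and 1 lower in DM3 (40.3% called, 19.3% higher and 20.9% lower). Those 4 comparisons had 4, 5, 7 and 4 members whose groups did not overlap, against 43.6%, 37.9%, 53% and 56.9% of all genes. MUNC spliced against MUNC genomic had 2 higher and 1 lower in GM (35.8% called, 19.9% higher and 16% lower). With the replicate number as a block 6 members were called, while calls over all 13869 genes went from 4970 to 6518. In DM3 the same lines had 3 higher, Klf15 among them, and 3 lower (44.2% called, 23.4% higher and 20.8% lower). Without MUNC spliced DM3 replicate 1 this became 2 and 2, with 5519 of all genes called. Groups of those lines did not overlap for 5 members in GM and 8 in DM3, against 45.7% and 57.2% of all genes. A change of the differentiation response was called in MUNC spliced cells for 1 member higher (Klf15) and 1 lower (14.4% called, 7.43% higher and 6.94% lower) and in MUNC genomic cells for 2 lower (8.81% called, 3.56% higher and 5.25% lower). The 4 counts against control were near or below the share of all genes. Each control group was shared by the comparisons of both lines with it. For all genes, the split of calls in GM moved with the scaling: MUNC spliced against control had 2530 higher and 2399 lower, or 3241 and 1658 after rescaling to equal sums, and MUNC genomic against control had 1694 and 2017, or 2049 and 1598. The split for the interaction of MUNC spliced was 1030 higher and 963 lower, or 802 and 1133 after rescaling, or 1042 and 635 with edgeR.

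**Figure D2:**
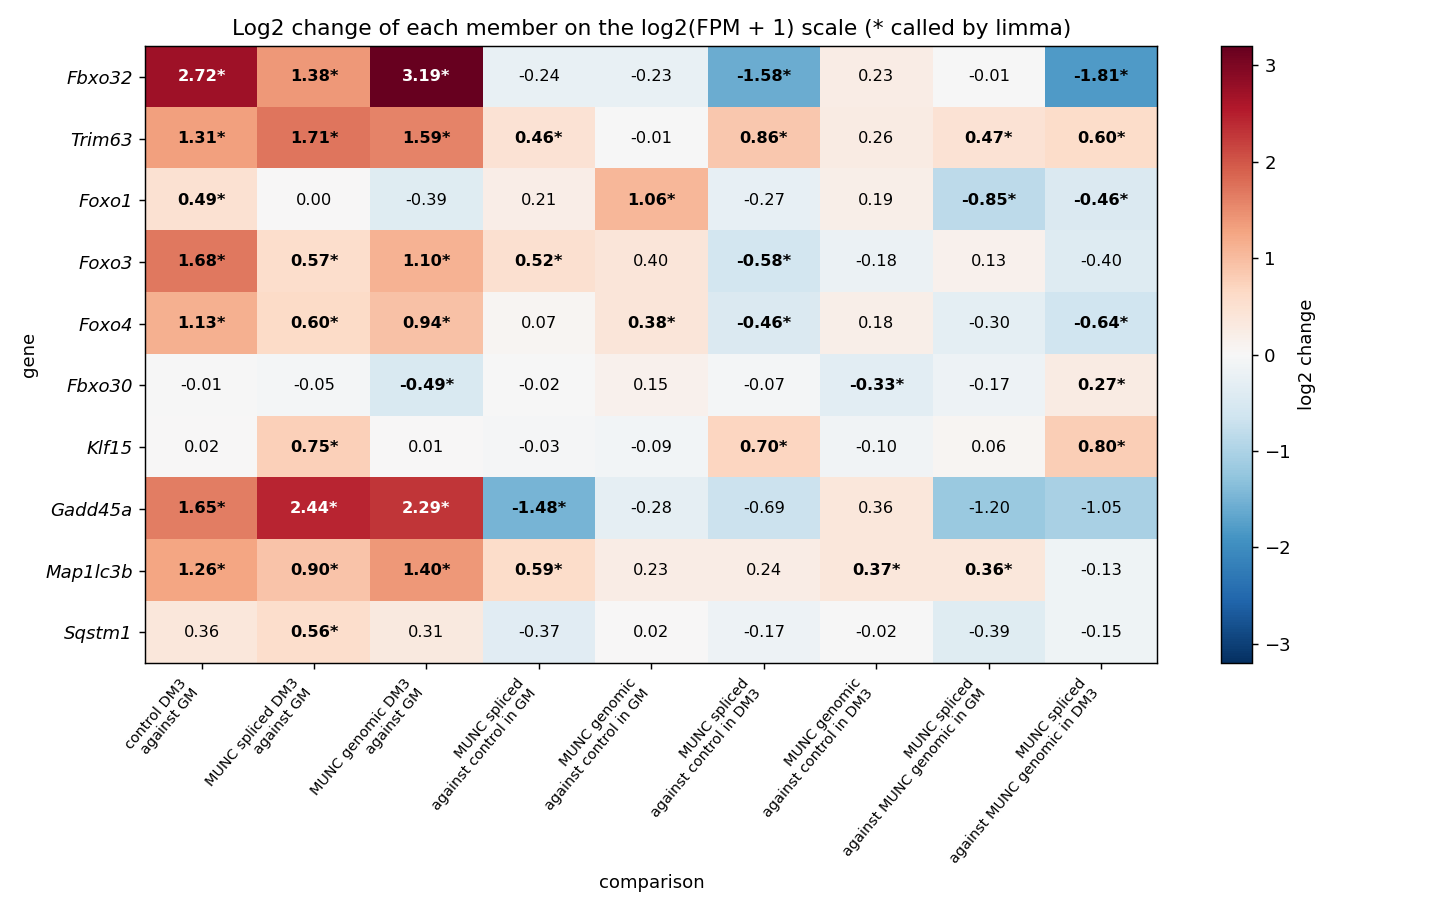
Log2 change of each member (rows) in 9 comparisons (columns), on the log2(FPM + 1) scale, red for higher and blue for lower, with an asterisk and bold type for calls by limma. The 3 columns of DM3 against GM are mostly red, and in the column of MUNC spliced against control in DM3 Fbxo32 stands at -1.58 beside Trim63 at 0.86.

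Fbxo32, the F-box ligase gene whose product tags MyoD and eIF3f for degradation, had the largest differentiation change of the members on the log2(FPM + 1) scale in control cells and in MUNC genomic cells. Its level in GM was 24.7, 38.3 and 34.2 FPM in control, 21.6, 40.9 and 22.0 FPM in MUNC spliced and 22.6, 39.0 and 22.3 FPM in MUNC genomic cells. In DM3 it was 164, 290.0 and 212 FPM in control, 42.1, 93.9 and 92.5 FPM in MUNC spliced and 249, 307 and 215 FPM in MUNC genomic cells. The 3 lines overlapped in GM, whereas in DM3 every MUNC spliced library lay below every library of the other lines. The rise on differentiation was 2.72 ± 0.32 (SE, log2 scale; adjusted p = 3.87e-06) in control, 3.19 ± 0.32 (adjusted p = 1.79e-06) in MUNC genomic and 1.38 ± 0.32 (adjusted p = 0.00369) in MUNC spliced cells. On the FPM scale the means differed by 6.85-fold, 9.18-fold and 2.70-fold. MUNC spliced was lower than control in DM3 by -1.58 ± 0.32 on the log2 scale (adjusted p = 0.000907) and differed from MUNC genomic by -1.81 (adjusted p = 0.000235). Fbxo32 was thus at 0.343 of the control mean. MUNC genomic did not differ from control beyond the spread in DM3 (0.23, 95% interval -0.45 to 0.92, adjusted p = 0.601). The difference between the responses of MUNC spliced and control was -1.35 (95% interval -2.31 to -0.38, adjusted p = 0.0585), which did not pass the threshold in limma and passed it with DESeq2 (adjusted p = 0.0318). It also passed without control DM3 replicate 1 (-1.54), MUNC spliced DM3 replicate 2 (-1.54) or MUNC spliced DM3 replicate 3 (-1.53).

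Trim63, the RING-finger ligase gene whose product acts on myosin and other thick filament proteins, was near 0 in GM in control and MUNC genomic cells and exceeded the control level in MUNC spliced cells in both media. In GM it had 3, 1 and 3 reads in control, 27, 24 and 11 reads in MUNC spliced and 0, 4 and 1 reads in MUNC genomic cells, which is 0.198 to 0.681 FPM in MUNC spliced and at most 0.0675 FPM in the other libraries. In DM3 it was 1.31, 1.499 and 1.99 FPM in control, 3.47, 4.76 and 2.97 FPM in MUNC spliced and 1.60, 2.56 and 2.19 FPM in MUNC genomic cells. Every MUNC spliced library was above every library of the other lines in the same medium. The rise on differentiation was called in control (1.31 ± 0.16, SE, log2(FPM + 1) scale, adjusted p = 3.96e-06), MUNC spliced (1.71, adjusted p = 1.17e-06) and MUNC genomic cells (1.59, adjusted p = 1.45e-06). MUNC spliced exceeded control in DM3 by 0.86 ± 0.16 (adjusted p = 0.000351) and MUNC genomic by 0.60 ± 0.16 (adjusted p = 0.0053). The latter was not called with edgeR (adjusted p = 0.116) or DESeq2 (adjusted p = 0.0695) on recovered reads, or with a pseudocount of 0.1 (adjusted p = 0.0622).

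The log2(FPM + 1) scale compresses changes at such levels, so the summed reads are given too. Trim63 had 252 reads in control DM3 and 7 in control GM, a ratio per depth of 41.3 with a 95% counting interval of 19.8 to 104. The ratio was 9.05 (6.96 to 11.9) in MUNC spliced cells, from 620 and 62 reads, and 76.3 (32.4 to 236) in MUNC genomic cells, from 363 and 5 reads. MUNC spliced against control was 10.7 (4.88 to 27.6) in GM and 2.34 (2.02 to 2.72) in DM3. These intervals cover counting error only. On the limma scale the responses of MUNC spliced and control differed by 0.40 (adjusted p = 0.234), but by -0.70 (adjusted p = 0.329) with a pseudocount of 0.1, -2.12 (adjusted p = 0.0744) with edgeR and -2.23 (adjusted p = 0.0303) with DESeq2. Whether Trim63 responded more or less to differentiation in MUNC spliced cells therefore depended on the scale, whereas its level in MUNC spliced cells was above control in each medium under every alternative tried. In GM the call of MUNC spliced above control (0.46, adjusted p = 0.0311) was lost without any 1 of control replicates 1, 2 or 3 (0.44 to 0.47) or MUNC spliced replicates 1 (0.34) or 2 (0.45), without a filter (adjusted p = 0.0531), without replicate 2 of all 3 GM groups (0.44) and with quantile normalization (0.36). The call over MUNC genomic in GM (0.47, adjusted p = 0.0267) was lost without MUNC spliced replicates 1 (0.35) or 2 (0.46) or MUNC genomic replicates 1 (0.45) or 3 (0.47), without replicate 2 of all 3 GM groups (0.49) and with quantile normalization (0.38).

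**Figure D3:**
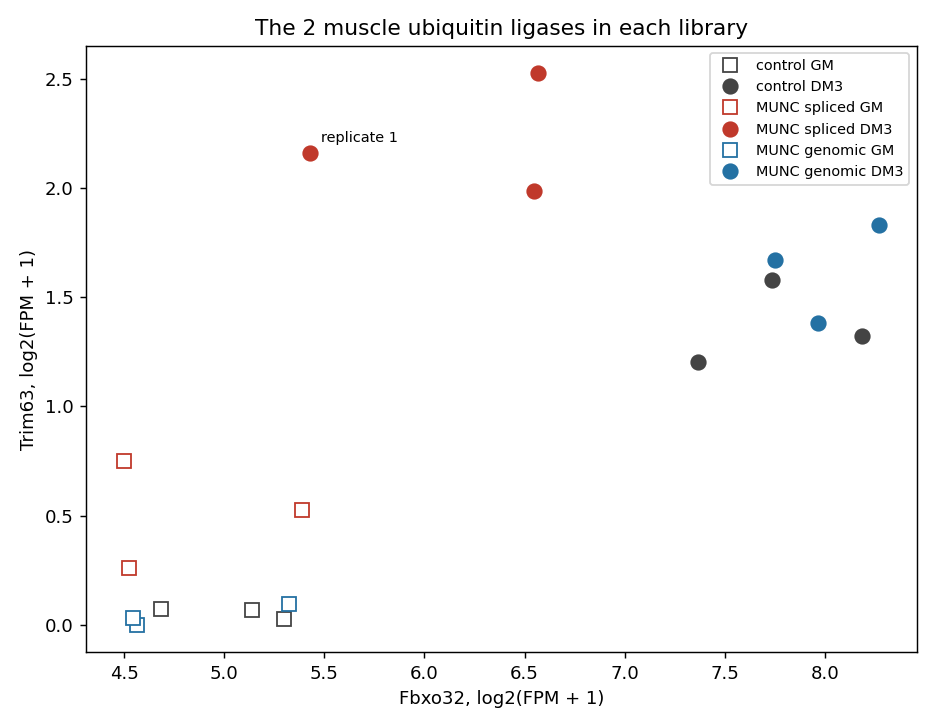
Trim63 (y axis) against Fbxo32 (x axis), both as log2(FPM + 1), 1 point per library, squares for GM and circles for DM3. The 3 MUNC spliced DM3 libraries lie above and to the left of the other DM3 libraries, with replicate 1 the lowest of the DM3 libraries for Fbxo32 (42.1 FPM).

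The opposite positions of the ligases did not rest on replicate 1 of MUNC spliced DM3. Replicates 2 and 3 had Fbxo32 at 93.9 and 92.5 FPM, below the lowest control DM3 library (164 FPM), and Trim63 at 4.76 and 2.97 FPM, above the highest (1.99 FPM). Across the 18 libraries the log2(FPM + 1) values of Fbxo32 and Trim63 had a Pearson r of 0.69, a description of libraries that share medium, line and replicate number. Trim63 followed Map1lc3b more closely (r = 0.92), and Fbxo32 followed Foxo4 (r = 0.96) and Foxo3 (r = 0.93).

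Fbxo30 (MUSA1), a further F-box ligase gene that is known to be held down by BMP signalling in muscle, differed little between most groups. It ranged from 69.6 to 74.4 FPM in control GM, 70.1 to 73.3 FPM in MUNC spliced GM and 76.5 to 82.9 FPM in MUNC genomic GM. In DM3 it ranged from 66.3 to 81.6 FPM in control and 61.1 to 80.4 FPM in MUNC spliced, but was 58.1, 58.5 and 54.6 FPM in MUNC genomic cells. It differed by -0.01 between control DM3 and GM (95% interval -0.22 to 0.20) and was the 1 member called lower on differentiation in MUNC genomic cells (-0.49 ± 0.10, SE, log2 scale, adjusted p = 0.000803). MUNC genomic was below control in DM3 by -0.33 (adjusted p = 0.015), a call lost without control DM3 replicate 2 (-0.24) or MUNC genomic DM3 replicate 3 (-0.30). MUNC spliced was above MUNC genomic in DM3 by 0.27 (adjusted p = 0.0413), a call lost without MUNC spliced replicates 1 (0.16) or 2 (0.29) or any 1 of the 3 MUNC genomic replicates (0.24 to 0.29), with the compared groups alone in the fit (adjusted p = 0.0918) and with quantile normalization (0.24).

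Foxo3, the factor gene most often tied to ligase and autophagy gene transcription, rose in every line, and by less in MUNC spliced than in control cells. In GM it was 35.5, 44.5 and 35.9 FPM in control, 48.8, 70.6 and 50.1 FPM in MUNC spliced and 46.3, 61.4 and 46.4 FPM in MUNC genomic cells. In DM3 it was 112, 141 and 125 FPM in control, 67.4, 102 and 83.9 FPM in MUNC spliced and 106, 121 and 105 FPM in MUNC genomic cells. MUNC spliced libraries were thus all above control in GM and all below control in DM3. The rise was 1.68 ± 0.17 (SE, log2 scale, adjusted p = 9.21e-07) in control, 1.10 (adjusted p = 6.05e-05) in MUNC genomic and 0.57 (adjusted p = 0.0152) in MUNC spliced cells, where GM and DM3 overlapped in 1 library of each. The last call was lost without MUNC spliced GM replicates 1 (0.48) or 3 (0.50) or MUNC spliced DM3 replicate 2 (0.43), and with the compared groups alone in the fit (adjusted p = 0.0793).

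The difference of the Foxo3 responses of MUNC spliced and control was called (-1.11 ± 0.24, SE, adjusted p = 0.0075). Against control, MUNC spliced was 0.52 higher in GM (adjusted p = 0.0239) and differed by -0.58 in DM3 (adjusted p = 0.0105). The GM call was lost without control replicates 1 (0.47) or 3 (0.48) or MUNC spliced replicate 2 (0.36), without replicate 2 of all 3 GM groups (0.46) and with the compared groups alone in the fit (adjusted p = 0.0632). The DM3 call was lost without control replicate 2 (-0.50, adjusted p = 0.0528) or MUNC spliced replicate 1 (-0.43, adjusted p = 0.0597). MUNC genomic was 0.40 above control in GM with no overlap (adjusted p = 0.0937), and this was called in the fit with a replicate block (adjusted p = 0.00155). MUNC spliced against MUNC genomic in DM3 was -0.40 (adjusted p = 0.0633), called without MUNC spliced replicate 2 (-0.55).

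Foxo4, which encodes another AKT-regulated forkhead factor, also rose in every line. In GM it was 29.1, 33.9 and 29.5 FPM in control, 29.4, 38.5 and 30.2 FPM in MUNC spliced and 38.8, 47.8 and 35.3 FPM in MUNC genomic cells. In DM3 it was 61.6, 71.1 and 74.2 FPM in control, 42.6, 54.2 and 53.3 FPM in MUNC spliced and 75.8, 81.6 and 76.6 FPM in MUNC genomic cells, so that the 3 lines did not overlap. Foxo4 rose by 1.13 ± 0.13 (SE, log2 scale, adjusted p = 3.81e-06) in control, 0.94 (adjusted p = 3.27e-05) in MUNC genomic and 0.60 (adjusted p = 0.00268) in MUNC spliced cells. In DM3 MUNC spliced differed from control by -0.46 (adjusted p = 0.011) and from MUNC genomic by -0.64 (adjusted p = 0.00103). The former call was lost without MUNC spliced replicate 1 (-0.35, adjusted p = 0.0596). In GM MUNC genomic was 0.38 above control (adjusted p = 0.0465), a call lost without control replicates 1 (0.34) or 3 (0.35) or MUNC genomic replicates 1 (0.41) or 2 (0.26), without a filter (adjusted p = 0.0717), without replicate 2 of all 3 GM groups (0.33) and with the compared groups alone in the fit (adjusted p = 0.118). MUNC spliced against MUNC genomic in GM was -0.30 (adjusted p = 0.0881), called with a replicate block (adjusted p = 0.0161) and with DESeq2 (adjusted p = 0.0452). It was also called without MUNC spliced replicate 2 (-0.42) or MUNC genomic replicate 3 (-0.40).

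Foxo1, whose product also acts on glucose metabolism genes in muscle, had its largest difference between lines. In GM it was 30.1, 27.8 and 20.1 FPM in control, 38.4, 25.2 and 27.4 FPM in MUNC spliced and 64.1, 55.9 and 45.3 FPM in MUNC genomic cells. In DM3 it was 36.7, 38.5 and 33.8 FPM in control, 30.4, 29.0 and 30.5 FPM in MUNC spliced and 45.9, 44.7 and 34.8 FPM in MUNC genomic cells. All MUNC genomic libraries in GM were above all other GM libraries. MUNC genomic exceeded control in GM by 1.06 ± 0.17 (SE, log2 scale, adjusted p = 0.000234), or 2.12-fold in mean FPM, and MUNC spliced differed from it by -0.85 (adjusted p = 0.00114). In DM3 MUNC genomic was 0.19 above control (95% interval -0.18 to 0.55, adjusted p = 0.415).

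The Foxo1 change on differentiation was 0.49 in control (adjusted p = 0.024), 0.00 in MUNC spliced (95% interval -0.36 to 0.37) and -0.39 in MUNC genomic cells (adjusted p = 0.0722). The difference of the responses of MUNC genomic and control was called (-0.87, 95% interval -1.39 to -0.35, adjusted p = 0.0342). That call was lost without control GM replicate 3 (-0.71), MUNC genomic GM replicates 1 (-0.76) or 2 (-0.86), any 1 of the 3 control DM3 replicates (-0.92 to -0.83) or MUNC genomic DM3 replicates 2 (-0.92) or 3 (-0.75), with edgeR (adjusted p = 0.052), without a filter (adjusted p = 0.0626) and without replicate 2 of all 3 GM groups (-0.91). The control call was lost without control GM replicate 3 (0.32) or control DM3 replicates 1 (0.48) or 2 (0.44). The MUNC genomic change was called without MUNC genomic GM replicate 3 (-0.52). MUNC spliced lay below MUNC genomic in DM3 (-0.46, adjusted p = 0.0412), a call lost without any 1 of the 3 MUNC spliced replicates (-0.47 to -0.44) or MUNC genomic replicates 1 (-0.39) or 2 (-0.41), and without a filter (adjusted p = 0.0693).

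Klf15, a factor gene of the glucocorticoid response that can act on Fbxo32 and Trim63, was detected at more than a trace in 1 group. It had 126 reads in the 3 MUNC spliced DM3 libraries, at 0.664, 0.592 and 1.03 FPM. It had 11 reads in control GM, 7 in MUNC spliced GM, 0 in MUNC genomic GM, 13 in control DM3 and 1 in MUNC genomic DM3, and was at most 0.173 FPM in any of those libraries. The upper limit that a count of 0 allows, 3 reads, came to at most 0.0757 FPM in any library. All 3 MUNC spliced DM3 libraries lay above all others. The read ratio to control DM3 was 9.20 and that to MUNC spliced GM was 16.3. These ratios and the lack of overlap describe the libraries through which Klf15 passed the filter, so they test nothing. The difference between its responses in MUNC spliced and control cells was not called with edgeR (adjusted p = 0.114) or DESeq2 (adjusted p = 0.17). MUNC genomic against control in GM, with 0 against 11 reads, was called with DESeq2 (adjusted p = 0.0482) but not in limma or with edgeR (adjusted p = 0.0865).

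Gadd45a, a stress-response gene linked to atrophy under denervation, rose on differentiation in every line and varied widely among GM replicates. In GM it was 33.8, 115 and 24.9 FPM in control, 13.4, 27.2 and 10.9 FPM in MUNC spliced and 33.4, 75.1 and 21.1 FPM in MUNC genomic cells. Replicate 2 was the highest in all 3 lines, and it was also the highest for Fbxo32, Foxo3 and Foxo4. In DM3 Gadd45a was 144, 167 and 131 FPM in control, 79.7, 81.9 and 115 FPM in MUNC spliced and 207, 185 and 175 FPM in MUNC genomic cells, with no overlap between lines. The rise was 1.65 ± 0.47 (SE, log2 scale, adjusted p = 0.00716) in control, 2.44 (adjusted p = 0.000975) in MUNC spliced and 2.29 (adjusted p = 0.000802) in MUNC genomic cells.

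The lower Gadd45a level of MUNC spliced against control in GM was called (-1.48, adjusted p = 0.0233) although the groups overlapped. The call was lost without control replicate 2 (-0.83), MUNC spliced replicates 1 (-1.36) or 3 (-1.23), without a filter (adjusted p = 0.0578) and with the compared groups alone in the fit (adjusted p = 0.0897). In DM3 the difference was -0.69 (95% interval -1.69 to 0.32, adjusted p = 0.259). MUNC genomic was 0.36 above control in DM3 (adjusted p = 0.584), and MUNC spliced against MUNC genomic was -1.05 (adjusted p = 0.0841). With the compared groups alone in the fit, these 3 DM3 differences were called (adjusted p = 0.0133, 0.0297 and 0.00125). Against MUNC genomic in GM, MUNC spliced differed by -1.20 (adjusted p = 0.0597), which was called with a replicate block (adjusted p = 0.0184), with edgeR (adjusted p = 0.0452), with DESeq2 (adjusted p = 0.0492), without replicate 2 of all 3 GM groups (-1.08, adjusted p = 0.00333) and without MUNC spliced replicate 2 (-1.57) or MUNC genomic replicate 3 (-1.60).

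Map1lc3b, the LC3B gene, rose in every line and was also higher in MUNC spliced than in control cells in GM. In GM it was 56.9, 46.0 and 51.5 FPM in control, 78.1, 88.1 and 68.8 FPM in MUNC spliced and 59.3, 64.7 and 57.5 FPM in MUNC genomic cells, in groups that did not overlap. In DM3 it was 130.4, 124 and 119 FPM in control, 113, 169 and 165 FPM in MUNC spliced and 159.5, 166 and 157 FPM in MUNC genomic cells. The rise was 1.26 ± 0.13 (SE, log2 scale, adjusted p = 1.53e-06) in control, 0.90 (adjusted p = 0.000128) in MUNC spliced and 1.40 (adjusted p = 1.24e-06) in MUNC genomic cells. MUNC spliced exceeded control in GM by 0.59 (adjusted p = 0.00284), a call lost without replicate 2 of all 3 GM groups (0.43, adjusted p = 0.0684).

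In DM3 Map1lc3b in MUNC spliced was 0.24 above control (adjusted p = 0.167), and without replicate 1 it was 0.42 above control and called (adjusted p = 0.00714). MUNC genomic was 0.37 above control in DM3 (adjusted p = 0.0382), a call lost without any 1 of the 6 libraries compared (0.34 to 0.40, adjusted p 0.0505 to 0.108) and without a filter (adjusted p = 0.0611). MUNC spliced was 0.36 above MUNC genomic in GM (adjusted p = 0.0461), a call lost without any 1 of MUNC spliced replicates 1 or 2 or the 3 MUNC genomic replicates (0.27 to 0.41), without replicate 2 of all 3 GM groups (0.32), without a filter (adjusted p = 0.0736), with the compared groups alone in the fit (adjusted p = 0.0574), with edgeR (adjusted p = 0.0727) and with DESeq2 (adjusted p = 0.0658).

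Sqstm1 was the most abundant member per length in every group, and its rise was called in 1 line. It ranged from 591 to 641 FPM in control, 413 to 516 FPM in MUNC spliced and 537 to 713 FPM in MUNC genomic cells in GM. In DM3 it ranged from 742 to 811 FPM, 517 to 829.7 FPM and 732 to 830.3 FPM. GM and DM3 did not overlap in any line, and the log2 change was 0.36 (adjusted p = 0.0602), 0.56 (adjusted p = 0.0113) and 0.31 (adjusted p = 0.102). The control change was called with a replicate block (adjusted p = 0.0495), with DESeq2 (adjusted p = 0.0372) and after rescaling to equal sums (adjusted p = 0.0402). It was also called with the compared groups alone in the fit (adjusted p = 0.0285) and with quantile normalization (adjusted p = 0.0488). The MUNC spliced change was lost without MUNC spliced GM replicate 3 (0.46) or MUNC spliced DM3 replicates 2 (0.47) or 3 (0.43), and with the compared groups alone in the fit (adjusted p = 0.0908). MUNC spliced lay below MUNC genomic in GM by -0.39 (adjusted p = 0.0628), which was called with a replicate block (adjusted p = 0.0462), with edgeR (adjusted p = 0.0363), with DESeq2 (adjusted p = 0.0237) and without MUNC genomic GM replicate 2 (-0.49). Against control in GM, the MUNC spliced level was -0.37 (adjusted p = 0.075), called with edgeR (adjusted p = 0.0471).

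Levels of different genes were compared per kilobase of exon. In control DM3 Sqstm1 was at 232 ± 10.4 FPM per kb (SD, n = 3), Gadd45a at 83.6 ± 10.3, Fbxo32 at 31.8 ± 9.10, Foxo4 at 19.8 ± 1.88, Foxo3 at 16.6 ± 1.93, Map1lc3b at 16.5 ± 0.778, Fbxo30 at 13.9 ± 1.56, Foxo1 at 4.19 ± 0.272, Trim63 at 0.562 ± 0.124 and Klf15 at 0.0294 ± 0.0311. The SD range of Foxo3 overlapped those of Foxo4, Map1lc3b and Fbxo30. Fbxo32 was the third highest in control DM3 and in MUNC genomic DM3 (36.9 ± 6.72 FPM per kb). In MUNC spliced DM3 it was at 10.9 ± 4.23, with an SD range that overlapped those of Foxo3 (11.2 ± 2.29), Fbxo30 (13.3 ± 1.91) and Foxo4 (14.3 ± 1.85). Trim63 in MUNC spliced DM3 (1.31 ± 0.325) was still below every member but Klf15.

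Genes with the most similar pattern were found by Pearson r over the 18 libraries among 11035 genes. These were Serinc3 (r = 0.976) and Pbxip1 (0.973) for Fbxo32, Zfand3 (0.955) and Zfp84 (0.9502) for Trim63, and Slc6a6 (0.866) and Sc5d (0.861) for Fbxo30. They were Dhdds (0.851) and Cdh10 (0.847) for Foxo1, Ip6k1 (0.977) and Ezh1 (0.971) for Foxo3, and Sft2d2 (0.984) and Pbxip1 (0.979) for Foxo4. For Klf15 they were Cxcl9 (0.956) and Znhit6 (0.937), and for Gadd45a Ccser2 (0.944) and Leprotl1 (0.943). For Map1lc3b they were Itfg3 (0.978) and Zfand3 (0.973), and for Sqstm1 Slc41a3 (0.930) and Renbp (0.899). Zfand3 was thus among the closest for Trim63 and Map1lc3b, and Pbxip1 for Fbxo32 and Foxo4.

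Of 20 other FoxO target genes tested, 15 were higher and 3 lower in DM3 than in GM in control cells, 9 and 0 in MUNC spliced (10 and 1 without DM3 replicate 1) and 13 and 2 in MUNC genomic cells. Of all genes 29.6%, 17.2% and 26.3% were called higher in these comparisons, and 28.6%, 18.4% and 25.1% lower. The list had medians of 0.85, 0.54 and 0.63 on the log2 scale. Txnip, an inhibitor of thioredoxin and glucose uptake, rose most in all 3 lines, by 5.17 ± 0.47 (SE, log2) in control, 3.44 in MUNC spliced and 4.48 in MUNC genomic cells. Against control in DM3, 3 were higher and 7 lower in MUNC spliced (4 and 5 without replicate 1) and 5 higher and 3 lower in MUNC genomic. Over all genes 22.3% were higher and 21% lower in MUNC spliced, and 19.3% and 20.9% in MUNC genomic. Txnip was the lowest in both, at -1.61 (adjusted p = 0.0111) and -2.75 (adjusted p = 0.000202), and Prkaa2, a catalytic subunit of AMPK, the highest, at 1.83 (adjusted p = 7.1e-07) and 2.09 (adjusted p = 1.04e-07).

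Of 36 autophagy genes tested, 26 were higher and 1 lower in DM3 than in GM in control cells (median 0.71 against 0.02 over all genes), 17 and 0 in MUNC spliced and 25 and 1 in MUNC genomic cells, against the same shares of all genes (29.6%, 17.2% and 26.3% higher). The receptor gene Calcoco1 rose most in control, from 25.0 to 195 FPM in the mean (2.93 ± 0.25, SE, log2). Map1lc3a, a paralog of Map1lc3b, rose by 2.53 in control, 1.61 in MUNC spliced and 3.30 in MUNC genomic cells. In MUNC spliced against control, 10 genes were higher and 4 lower in GM, and 4 higher and 12 lower in DM3, or 3 and 6 without replicate 1. The shares over all genes were 18.2% higher and 17.3% lower in GM, and 22.3% and 21% in DM3. Bnip3, a mitophagy receptor gene, was lowest in DM3 (-1.37, adjusted p = 0.00268) and Atg3, which conjugates LC3 to lipid, highest (0.91, adjusted p = 8.52e-07). In MUNC genomic against control in DM3, 8 genes were lower and 6 higher, with Rb1cc1 at -1.05 and Gabarapl2 at 0.84. There 20.9% of all genes were lower and 19.3% higher.

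**Figure D4:**
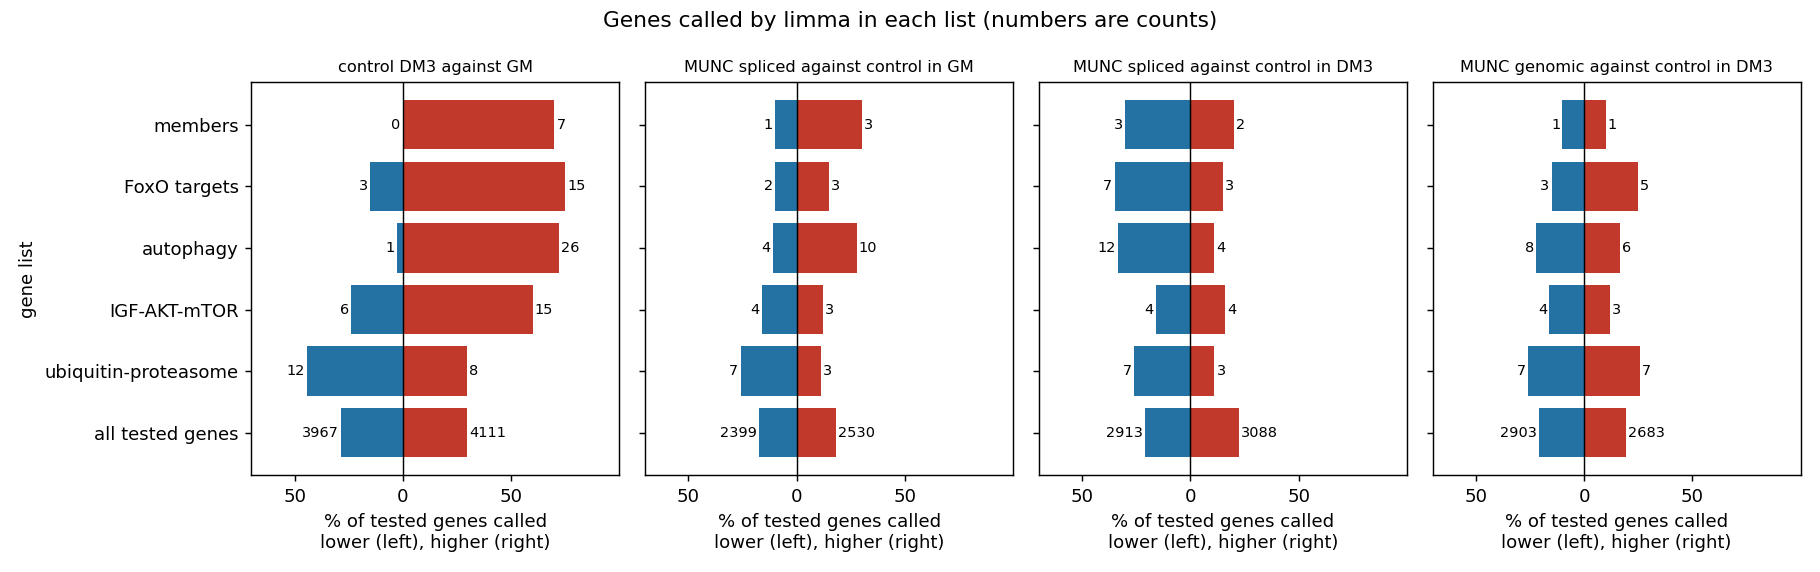
Share of the tested genes of each list called higher (red, right) or lower (blue, left) by limma in 4 comparisons (panels), with counts at the bar ends; the x axis is percent of tested genes. In control DM3 against GM, 15 of 20 FoxO targets and 26 of 36 autophagy genes were higher, whereas of the ubiquitin-proteasome genes 8 were higher and 12 lower. All tested genes were 29.6% higher and 28.6% lower.

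Other genes of the ubiquitin-proteasome system changed in both directions. Of 27 tested genes, 8 were higher and 12 lower in control DM3 against GM (median -0.22), 1 and 8 in MUNC spliced (4 and 8 without DM3 replicate 1) and 6 and 8 in MUNC genomic cells. Over all genes these shares were 29.6% and 28.6%, 17.2% and 18.4%, and 26.3% and 25.1%. Zfand5, which stimulates the proteasome, was highest in MUNC spliced (0.60) and MUNC genomic cells (1.20). Against control in DM3, 3 were higher and 7 lower in MUNC spliced (2 and 4 without replicate 1), with Vcp at 0.49 and Psmd4 at -0.58, and 7 higher and 7 lower in MUNC genomic. Among all genes 22.3% were higher and 21% lower in MUNC spliced, and 19.3% and 20.9% in MUNC genomic.

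Genes that feed into FoxO through IGF, AKT and mTOR changed in both directions. Of 25 tested, 15 were higher and 6 lower in control DM3 against GM, with the FoxO kinase gene Sgk1 lowest (-1.73). The shares over all genes were 29.6% and 28.6%. Against control in DM3, 4 were higher and 4 lower in MUNC spliced (4 and 3 without replicate 1) and 3 and 4 in MUNC genomic. Here the shares over all genes were 22.3% and 21% in MUNC spliced and 19.3% and 20.9% in MUNC genomic. The insulin-like growth factor gene Igf2 was 0.730, 0.967 and 2.28 FPM in control DM3 and 299, 95.2 and 103.7 FPM in MUNC spliced DM3 (6.02 ± 0.46, SE, log2, adjusted p = 3.72e-08), with replicate 1 the highest. It was 3.21, 12.5 and 2.34 FPM in MUNC genomic DM3 (1.36, adjusted p = 0.0251). Ddit4, an mTORC1 inhibitor gene also induced by glucocorticoids, was lower in MUNC spliced (-1.10, adjusted p = 0.00783).

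Glucocorticoid-axis genes, the setting in which Klf15 is known, were called higher in 5 of 9 tested and lower in 1 in MUNC spliced against control in DM3 (4 and 1 without replicate 1, beside 22.3% of all genes higher and 21% lower), with Mt2 highest (2.02, adjusted p = 0.029). In control DM3 against GM 4 were higher and 2 lower (29.6% and 28.6% of all genes), with the receptor co-chaperone gene Fkbp5 at -1.81 (adjusted p = 1.3e-07). Among substrates of the ligases 9 were tested. Myh3, which encodes embryonic myosin, was highest in MUNC spliced against control in DM3 (5.28) and Eif3f lowest (-0.62, adjusted p = 0.000467), with 4 higher and 2 lower in all (4 and 1 without replicate 1). Myod1 was highest in MUNC genomic against control in DM3 (4.12, adjusted p = 5.57e-07), with 5 higher and 3 lower. There 19.3% of all genes were higher and 20.9% lower.

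Denervation and activin-BMP genes were higher in 10 and lower in 3 of 20 tested in control DM3 against GM, with the acetylcholine receptor gene Chrna1 highest (2.60) and Tnfrsf12a lowest (-1.94). For this and the next 2 lists, 29.6% of all genes were higher and 28.6% lower in control DM3 against GM. In DM3 the class II deacetylase gene Hdac5 was lowest in MUNC spliced (-1.21) and MUNC genomic (-1.03) against control, and Myog highest (5.90 and 2.92). Of 12 inducers and partners of Sqstm1, 2 were higher and 4 lower in control DM3 against GM, with its relative Nbr1 at 1.21 and the NRF2 target Gclm at -1.84. Among 16 paralogs of the members, 8 were higher and 0 lower in that comparison. Foxo6 was 1.77 higher in MUNC genomic than in control DM3 (adjusted p = 0.000356), and Klf4 was 1.61 higher in MUNC spliced than in control GM and 1.76 higher in DM3.

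The authors' deposited tables of comparisons called 7 members in control DM3 against GM, of which 6 were called here. In the authors' deposited table for that comparison Gadd45a had an adjusted p of 0.104 and Sqstm1 one of 0.0453, the reverse of the calls by limma. The authors' deposited tables called 3 members in MUNC spliced against control in GM (all among the 4 called here, without Gadd45a at 0.0777) and 6 in DM3, adding Gadd45a (0.00246) to the 5 called here. For MUNC genomic they called 1 in GM, Foxo1 (log2 fold change 1.13), where Foxo4 was at an adjusted p of 0.0702 in the authors' deposited table. Trim63 and Klf15 had no adjusted p in that table, so neither could be called. In DM3 the authors' deposited table called 3 for MUNC genomic, adding Gadd45a (0.0154). The authors' deposited table gave Trim63 a log2 fold change of 1.22 and Fbxo32 one of -1.54 in MUNC spliced against control in DM3.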

How the data were processed

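The authors deposited a table of normalized signal in FPM for 18 libraries, and 5 tables of their own comparisons with log2 fold changes, p-values and scores (mean and test statistic, not used here), per the file headers. The submitters' processing notes name STAR, HTSeq, DESeq2 and mm10, without versions. A label calls the values FPKM, but whole reads were recovered for 100% of the deposited signal values, within 0.05 of a read, with no use of gene length. Groups follow the titles. For 9 samples the source label names the other cell state, so it was left aside.

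Tests used limma 3.58.1 (R 4.3.3) with a mean-variance trend on log2(FPM + 1), 1 fit of all 18 libraries with 12 residual degrees of freedom, over 13869 genes that reached 0.5 FPM in 3 or more libraries, for 11 comparisons. edgeR 4.0.16 and DESeq2 1.42.0 on recovered reads were alternatives. edgeR called 8034 genes in control DM3 against GM, against 8078 by limma. The members, gene lists and tests were chosen with earlier results of these data known. Members are named in every comparison. For each further list the called genes with the largest rise and fall among those at 5 FPM or more are named except some that are not reported here, and Myog, Myh3 and Mki67 for replicate 1 (Mki67 added after its values were seen). Among genes whose highest group mean was at least 5 FPM, the 2 with the highest r are named for each member. Proliferation genes were listed after the data had been seen. The gene lists share some genes, so their counts are not independent. Gabarapl1, Bnip3 and Ctsl, for instance, are in both the FoxO target and autophagy lists, and Map1lc3a is in both the paralog and autophagy lists.

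Same-numbered replicates deviated together (r over 0.1 for every number) in control DM3 against GM (0.20 to 0.41), in each line against control (0.17 to 0.73) and between the MUNC lines in GM (0.46 to 0.73), so the replicate block is printed where it changed a call there. Promoters and gene positions are on GRCm38. Exon length came from the annotation. MUNC itself was not analysed here, so overexpression was not checked. Reads were counted per gene by a method whose strand setting is not given in the sources used here, so reads of overlapping genes could not be separated.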

Additional observations from a re-analysis of the deposited data

Results flagged for a closer look

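Differentiation responses that differed between lines were called in limma for 4 members, Klf15 among them. Foxo3 responded less in MUNC spliced than in control cells (-1.11 on the log2 scale), rising from 38.6 to 126 FPM in control and from 56.5 to 84.5 FPM in MUNC spliced cells. The Klf15 value was 0.73 in MUNC spliced cells, where it went from 7 to 126 reads against 11 to 13 reads in control, but Klf15 was tested only because of its level in MUNC spliced DM3, and edgeR (adjusted p = 0.114) and DESeq2 (adjusted p = 0.17) did not call it. The Foxo1 response in MUNC genomic cells differed from that in control by -0.87, with estimates of opposite sign. The change was -0.39 in MUNC genomic cells, not called, and 0.49 in control. The Foxo1 mean went from 55.1 to 41.8 FPM in MUNC genomic cells, against 26.0 to 36.3 FPM in control. Fbxo30 fell in MUNC genomic cells relative to control (-0.48, adjusted p = 0.047), going from 80.4 to 57.0 FPM against 72.6 to 72.4 FPM. Fbxo30 lost this call without any 1 of 11 of the 12 libraries in the comparison (-0.51 to -0.39). It was also lost with a pseudocount of 0.1 (-0.49), without a filter (adjusted p = 0.0508), with edgeR (adjusted p = 0.0748) and without replicate 2 of all 3 GM groups (-0.53).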

How the results depend on the processing

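Alternatives of scale, filter, grouping and tool and the replicate block were tried for each member and comparison, beside leaving out each library. Of 960 such values of single members 874 kept their direction and side of the threshold, 36 lost a call, 27 gained one and 23 changed sign. Of 780 values with 1 library left out the numbers were 659, 73, 12 and 36. The cause of these changes was not tested.

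The number of members called was 4 for MUNC spliced against control in GM, and became 2 without a filter, 2 with the compared groups alone and 1 without replicate 2 of all 3 GM groups (chosen after seeing the data). Over all genes 4929 of 13869 were called there. In these settings it was 4721 of 24893 without a filter, then 3431 and 3240 of 13869. For MUNC genomic against control in GM the number of members was 2, and 1 in each of these settings. All-gene calls there were 3711, and 3502, 2523 and 2639 in the same order. For MUNC genomic against control in DM3 it was 2 members (5586 of all genes), and 1 without a filter (5852 of 24893 genes). For MUNC spliced against MUNC genomic in GM it was 3 (4970 of all genes), and 6 with a replicate block (6518) or 5 with DESeq2 (5533). For the interaction of MUNC spliced it was 2 (1993 of all genes), and 4 with the block (3868) or 1 with edgeR (1677). For the interaction of MUNC genomic it was 2, and 1 with a pseudocount of 0.1, 0 without a filter in limma, 0 with edgeR, 0 without replicate 2 of all 3 GM groups in limma (3 members at an unadjusted p under 0.05 in each of the settings with 0), and 2 with DESeq2. All-gene calls for it were 1222, and 1003, 1132 (of 24893), 777, 1030 and 1274 in the same order.

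The r of same-numbered replicates was not over 0.1 for every number in 3 comparisons. It was 0.016 to 0.38 in MUNC spliced and 0.053 to 0.36 in MUNC genomic DM3 against GM, and 0.094 to 0.43 between the MUNC lines in DM3. In the last 2 of these each replicate still had its highest r with its own number. Pairing was not checked for the interactions. The replicate block gave calls for Foxo1 (-0.39, adjusted p = 0.0159) in MUNC genomic DM3 against GM, and for Foxo3 (-0.40) and Gadd45a (-1.05) between the MUNC lines in DM3. It gave calls for Fbxo32 (-1.35) and Foxo4 (-0.53) in the interaction of MUNC spliced and for Foxo3 (-0.58) in that of MUNC genomic. The block changed no other call beside those given with the results.

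With 1 library left out, the count ranged from 6 to 7 in control DM3 against GM, 6 to 8 in MUNC spliced, 7 to 8 in MUNC genomic, 2 to 3 for MUNC spliced and 1 to 2 for MUNC genomic against control in GM, 4 to 5 and 0 to 1 in DM3, 1 to 3 between the MUNC lines in GM, 4 to 5 in DM3, 2 to 4 for the interaction of MUNC spliced and 0 to 1 for that of MUNC genomic. Where limma gave 0, 2 or 3 members had an unadjusted p under 0.05. Calls over all 13869 genes moved too. In the same order they ranged from 7087 to 7879, 3297 to 5378 and 5934 to 6973 for DM3 against GM. Against control they were 3598 to 4704 and 2762 to 3781 in GM, and 4867 to 5750 and 4481 to 5218 in DM3. Between the MUNC lines they were 4034 to 4607 in GM and 5177 to 5569 in DM3. For the interactions they were 1063 to 2434 and 784 to 1345.

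The changes of sign concerned members without a call in limma. After rescaling to equal sums Fbxo30 was 0.023 in control DM3 against GM and 0.092 in MUNC spliced against control in GM, Foxo1 -0.030 in MUNC spliced DM3 against GM, Sqstm1 0.0074 in MUNC genomic against control in DM3 and Fbxo32 0.040 between the MUNC lines in GM. With quantile normalization the same 2 values of Fbxo30 were 0.019 and 0.040, Klf15 was -0.025 in control DM3 against GM and 0.033 in the interaction of MUNC genomic, Sqstm1 was 0.0038 in MUNC spliced and 0.042 in MUNC genomic against control in DM3, and Fbxo32 was 0.0016 between the MUNC lines in GM. Without replicate 2 of all 3 GM groups Fbxo30 was 0.0032 and 0.0058, and Foxo1 -0.11. With DESeq2 Fbxo30 was 0.015 in control DM3 against GM, Sqstm1 0.0071 in MUNC genomic against control in DM3 and Klf15 0.64 in the interaction of MUNC genomic, and with edgeR Klf15 was 1.51 there and Fbxo30 0.016 in the interaction of MUNC spliced. Trim63 in that interaction was -0.70 with a pseudocount of 0.1, -2.12 with edgeR and -2.23 with DESeq2.

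With 1 library left out, DM3 against GM ranged from -0.098 to 0.051 for Fbxo30 and -0.037 to 0.078 for Klf15 in control, -0.11 to 0.18 for Foxo1 and -0.16 to 0.030 for Fbxo30 in MUNC spliced, and 0 to 0.014 for Klf15 in MUNC genomic. Against control in GM, MUNC spliced ranged from -0.045 to 0.14 for Foxo4 and -0.075 to 0.00025 for Klf15, and MUNC genomic from -0.039 to 0.0080 for Trim63, -0.77 to 0.37 for Gadd45a and -0.087 to 0.12 for Sqstm1. In DM3, MUNC spliced ranged from -0.18 to 0.023 for Fbxo30 and -0.30 to 0.041 for Sqstm1, and MUNC genomic from -0.080 to 0.011 for Sqstm1. Between the MUNC lines Fbxo32 ranged from -0.30 to 0.25 and Foxo3 from -0.042 to 0.26 in GM, and Map1lc3b from -0.23 to 0.055 and Sqstm1 from -0.28 to 0.064 in DM3. In the interactions Fbxo30 ranged from -0.15 to 0.044 (MUNC spliced), and Klf15 from -0.069 to 0.046, Gadd45a from -0.0070 to 1.13 and Sqstm1 from -0.14 to 0.064 (MUNC genomic). Depth limits Klf15 and Trim63 in GM, where groups held at most 62 reads.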
